A study of Gallus gallus with 6 samples.

Results

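HOX genes are the homeobox genes of the HOXA, HOXB, HOXC and HOXD clusters. Members here were the probe sets whose platform annotation gave exactly 1 symbol made of HOX, a cluster letter from A to D and a number. This rule gave 59 of the 38535 probe sets on a chicken expression array, for 29 of 13009 annotated genes, and symbol and gene ID matched the RefSeq annotation for all 59. They were measured on 6 arrays of cultured neural crest cells, 3 arrays for each of 2 groups.

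All cultures came from neural tubes of Brown Leghorn embryos at Hamburger-Hamilton stages 10 to 13. The tubes were explanted on collagen in medium with retrovirus, the explants were removed after 3 days, and the cells that had migrated out were kept. In the first group, called the v-Myb arrays, the cells expressed v-Myb-L3,4A-HAER. It derives from v-Myb, the oncogenic transcription factor of an avian leukemia virus, has a mutated leucine zipper and is switched on by 4-OH-tamoxifen. In the second group, called the N118D arrays, they expressed v-Myb-L3,4A-N118D-HAER, which also has the substitution N118D in the DNA-binding domain. Both groups were kept for 4 hours in the drug at 200 nM, so every array shares the altered zipper, the virus and the drug. No array without drug or virus was analysed here. The comparison asks which transcripts differ when the DNA-binding domain is altered. The labels call the replicates biological without naming the embryos behind each, and p-values therefore measure the spread between these 6 cultures, which may be technical. The axial level of the explanted tubes is not given in the sources used here.

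HOX proteins are transcription factors that give cells their position along the head-to-tail axis. Within a cluster, genes at the 3′ end, with low paralog numbers, have the most anterior expression borders, in the hindbrain, and genes with higher numbers begin further back. Genes of the same number in different clusters are paralogs of one another. Crest cells keep part of the HOX code of the neural tube level they leave, and crest from in front of the hindbrain carries none.

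Transcripts of HOX genes of every paralog number from 1 to 11 except 2 were measured in these cultures. The deposited values are log2 levels after background correction, and a probe set counted as measured, and was tested, if it stood at 4 or more on 3 or more arrays. Of the 59 HOX probe sets 23 met this minimum, for 17 genes, and 36 did not. In the HOXA cluster 7 of 10 genes met it, HOXA3, HOXA4, HOXA5, HOXA6, HOXA7, HOXA9 and HOXA11. In the HOXB cluster 5 of 9 did, HOXB1, HOXB3, HOXB4, HOXB5 and HOXB7. HOXC9 was the only one of 4 HOXC genes, and HOXD4, HOXD8, HOXD10 and HOXD11 were 4 of 6 HOXD genes. None of the 5 genes with a paralog number of 12 or 13, which mark the tail end of the axis, met the minimum.

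**Figure D1:**
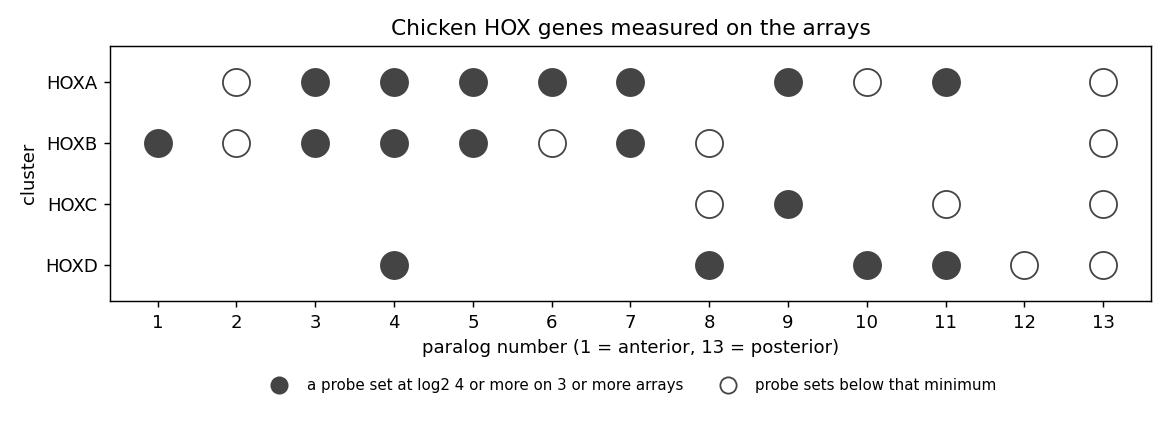
Chicken HOX genes by cluster (vertical axis) and paralog number (horizontal axis). Filled circles mark the 17 genes with a probe set at log2 4 or more on 3 or more arrays and open circles the 12 genes whose probe sets stayed below. The filled circles end at paralog number 11.

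The 36 probe sets below the minimum ranged from 1.67 to 3.76, and none of them reached 4 on any array. The nearest to it were HOXD13, with 3.76 on its highest array, and 1 probe set each of HOXA11 and HOXA9, with 3.68 and 3.67. The measured probe set of HOXB1 was at 3.87 on v-Myb array 3 and at 4.53 or more on the other arrays. Just inside the minimum lay the probe sets HOXA7 (d) and HOXD4 (b), whose lowest values were 4.01 and 4.12. Letters are used where a gene has several tested probe sets. The 12 genes with no probe set at the minimum were HOXA2, HOXA10, HOXA13, HOXB2, HOXB6, HOXB8, HOXB13, HOXC8, HOXC11, HOXC13, HOXD12 and HOXD13. A low probe set does not show that its gene is silent, since 8 of the 17 measured genes also had a probe set below the minimum. HOXB1, for example, was measured on 1 of 5 probe sets and HOXA11 on 1 of 5. Probe sets bind with different strengths, so levels are compared here between arrays and not between genes.

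Between the groups, HOX genes of paralog numbers 1 to 6 were mostly lower on the v-Myb arrays, and those of numbers 7 to 11 lay on both sides of 0. This cut after number 6 was chosen after the values had been seen. Of the 14 probe sets of numbers 4 to 8, 10 were lower. HOXB4, HOXA5 and 1 of 2 tested probe sets of HOXD4, with paralog numbers 4 and 5, were lower by 0.60 to 0.64 on the log2 scale, and their v-Myb arrays all lay below their N118D arrays. The other HOXD4 probe set differed by 0.22, and the mean of both by -0.19. Of the 23 tested HOX probe sets 16 were lower and 7 higher on the v-Myb arrays, with a median difference of -0.24. Over all 16526 tested probe sets 50.8% were lower and the median difference was -0.0018. None of the HOX probe sets passed an adjusted p of 0.05 in limma, and neither did any other probe set (0%). At an unadjusted p under 0.05 there were 3 HOX probe sets, where 1.91% of all tested probe sets had such a p. A difference of 0.5 or more in size was measured for 7 of 23, all lower in v-Myb, against 2.06% of all tested probe sets. These shares differ in precision, since the median standard error was 0.31 for HOX probe sets and 0.13 over all. Among the 7, the 95% intervals of HOXB1, HOXB3, HOXA4 and HOXB5 included 0. Those of HOXB4, HOXA5 and the lower HOXD4 probe set did not. The groups did not overlap for 3 of 23, all lower in v-Myb, against 5.74% of all tested probe sets in either direction and 3.05% lower. In limma the adjusted p was 0.9999 for each of the 23, and the differences below are values, not calls. With 3 arrays a group, no exact permutation test can reach a p below 0.1, and the number of arrays limits the precision throughout. In RNA from mixed cultures, fewer cells with a transcript and less of it per cell cannot be told apart.

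The count of lower HOX probe sets depended most on v-Myb arrays 1 and 2. It was 15 to 17 of 23 without v-Myb array 3 or without any 1 of the N118D arrays (47.4% to 52.3% of all). Without v-Myb array 1 it was 21 of 23 and the median difference was -0.38, with 11 probe sets at an unadjusted p under 0.05 (7.30% of all) and 11 without overlap (25.1% of all). Without v-Myb array 2 the count was 13 of 23, or 56.5%, against 53.2% of all tested probe sets, and the median was -0.01. Without N118D array 1 the median was -0.14, and 5 probe sets had no overlap without N118D array 1 (14.6% of all) as well as without N118D array 2 (11.2% of all). In each of these fits the adjusted threshold was passed by 0 HOX probe sets. The smallest adjusted p of a HOX probe set in limma over the fits that left out 1 array was 0.362, without v-Myb array 1.

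**Figure D2:**
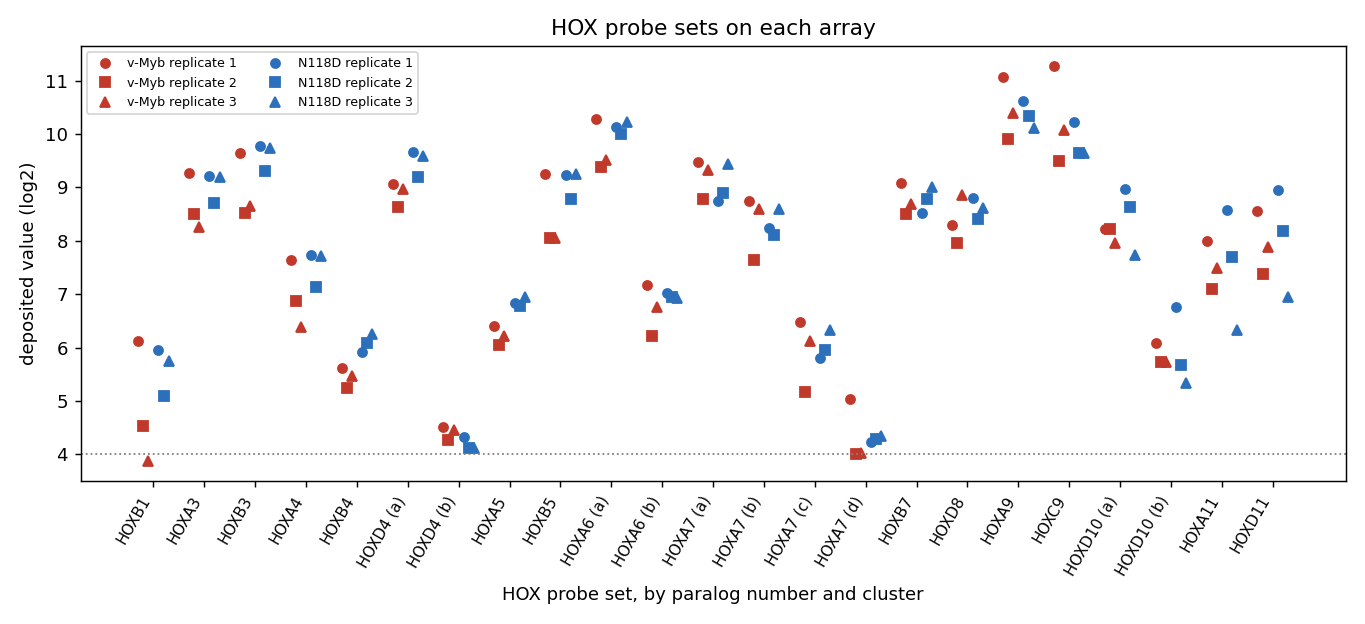
Deposited log2 values of the 23 tested HOX probe sets on each of the 6 arrays, ordered by paralog number and then cluster. Red marks are v-Myb arrays and blue marks N118D arrays, the marker shape gives the replicate, and letters after a symbol separate probe sets of one gene. The dotted line is the minimum of 4. The red and blue marks are separate for HOXB4, HOXD4 (a) and HOXA5.

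The most anterior measured gene was HOXB1, whose expression marks a segment of the embryonic hindbrain. It was at 6.12, 4.53 and 3.87 on v-Myb arrays 1, 2 and 3, and at 5.96, 5.09 and 5.75 on N118D arrays 1, 2 and 3. The highest and the lowest of the 6 values were both v-Myb arrays, so the groups overlapped. The difference, v-Myb minus N118D here and below, was -0.76 (standard error 0.60), the largest in size among the HOX probe sets, and its 95% confidence interval ran from -2.23 to 0.71.

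Both measured genes of paralog number 3, HOXA3 and HOXB3, act in the posterior hindbrain and the pharyngeal arches. HOXB3 was at 9.65, 8.52 and 8.66 on the v-Myb arrays and at 9.77, 9.30 and 9.74 on the N118D arrays. v-Myb arrays 2 and 3 lay below every N118D array, and v-Myb array 1 lay among them. The HOXB3 difference was -0.66 (standard error 0.33). HOXA3 also had v-Myb arrays 2 and 3 below every N118D array, while v-Myb array 1, at 9.27, was its highest. The HOXA3 difference was -0.36 (standard error 0.29).

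The paralog group numbered 4 has its anterior border near the junction of hindbrain and spinal cord, and 3 of its genes were measured. HOXB4 was at 5.61, 5.24 and 5.48 on the v-Myb arrays and at 5.92, 6.08 and 6.25 on the N118D arrays. The groups were separate, with all v-Myb arrays the lower ones. Means were 5.44 ± 0.19 and 6.09 ± 0.16 (SD, n = 3 each), a difference of -0.64 (standard error 0.13), or 1.56-fold lower in v-Myb.

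HOXD4 was measured by 2 probe sets that disagreed. On HOXD4 (a) the v-Myb arrays were at 9.06, 8.63 and 8.97 and the N118D arrays at 9.66, 9.20 and 9.59. The groups did not overlap there, with means of 8.89 ± 0.22 and 9.48 ± 0.25 (SD, n = 3 each) and a difference of -0.60 (standard error 0.17). On HOXD4 (b), which stayed between 4.12 and 4.52, the difference had the opposite sign, 0.22 (standard error 0.11), and the groups overlapped. HOXA4 was at 7.64, 6.88 and 6.38 on the v-Myb arrays and at 7.73, 7.14 and 7.72 on the N118D arrays. As for HOXB3, v-Myb arrays 2 and 3 were the 2 lowest and v-Myb array 1 lay among the N118D arrays. The HOXA4 difference was -0.56 (standard error 0.35).

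Paralog group 5 takes part in patterning of the neck and upper trunk, and HOXA5 and HOXB5 were measured. HOXA5 was at 6.41, 6.05 and 6.22 on the v-Myb arrays and at 6.84, 6.77 and 6.95 on the N118D arrays. The v-Myb arrays all lay below the N118D arrays, with means of 6.23 ± 0.18 and 6.85 ± 0.09 (SD, n = 3 each). The difference of -0.63, or 1.54-fold lower in v-Myb, had a standard error of 0.11 and the smallest unadjusted p among HOX probe sets. The differences of HOXA5 and HOXB4 were already known when the HOX genes were chosen for description.

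HOXB5 was at 9.25, 8.05 and 8.04 on the v-Myb arrays and at 9.23, 8.79 and 9.24 on the N118D arrays. Its v-Myb arrays 2 and 3 were again the lowest, while v-Myb array 1 lay level with N118D arrays 1 and 3. The HOXB5 difference of -0.64 equalled that of HOXB4 after rounding, but its standard error of 0.36 was larger and its interval, from -1.53 to 0.24, included 0. HOXA6, a thoracic-level member of paralog group 6, differed by -0.39 and -0.25 on 2 probe sets, with standard errors of 0.25 and 0.24, and both had v-Myb array 1 as the highest array.

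**Figure D3:**
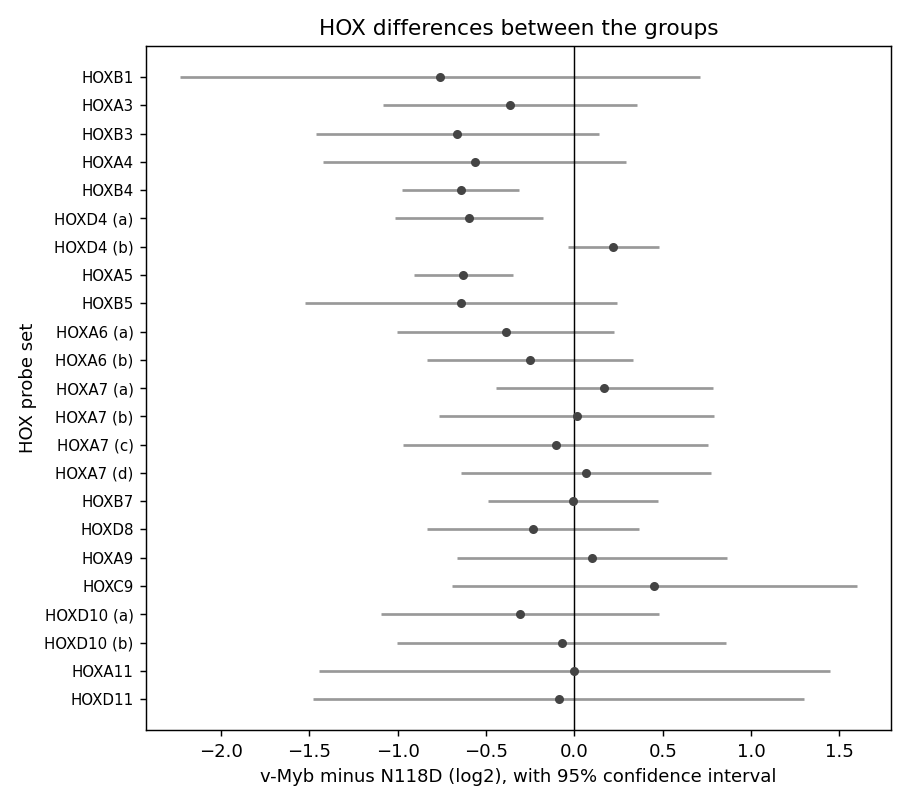
Differences between group means (v-Myb minus N118D, log2) for the 23 tested HOX probe sets, with 95% confidence intervals from the moderated variance in limma, unadjusted for the number of probe sets. From top to bottom the paralog number goes from 1 to 11. Points lie left of 0 down to HOXA6, except HOXD4 (b), and on both sides of 0 from HOXA7 on.

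From paralog number 7 on, differences had both signs, and none was larger than its standard error. HOXA7, expressed in trunk neural tube and mesoderm, had 4 tested probe sets with differences of 0.17, 0.01, -0.11 and 0.06, and standard errors of 0.25 to 0.35. HOXB7 differed by -0.0083 (standard error 0.20), and HOXD8 by -0.24 (standard error 0.24). Among the genes of paralog group 9, which pattern the posterior thoracic region, HOXA9 differed by 0.10 and HOXC9 by 0.45, with standard errors of 0.31 and 0.47. HOXC9 was at 11.28, 9.50 and 10.07 on the v-Myb arrays and at 10.22, 9.64 and 9.64 on the N118D arrays. Its difference, the highest among HOX probe sets, came with both the highest and the lowest array in the v-Myb group.

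The posterior genes HOXD10, HOXA11 and HOXD11, which act in lumbosacral and limb patterning, did not separate the groups either. HOXA11 was at 8.004, 7.09 and 7.50 on the v-Myb arrays and at 8.57, 7.70 and 6.32 on the N118D arrays. The N118D arrays held both ends of this range, and the difference rounded to 0.00 (standard error 0.59). HOXD11 was at 8.56, 7.37 and 7.89 on the v-Myb arrays and at 8.95, 8.18 and 6.94 on the N118D arrays, with the same array highest and the same array lowest. It differed by -0.09 (standard error 0.56). HOXD10 differed by -0.31 and -0.07 on 2 probe sets that the annotation ties to one expressed sequence tag, with standard errors of 0.32 and 0.38. Those standard errors leave room for differences of either sign: the 95% interval of HOXA11 ran from -1.44 to 1.45.

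HOX transcripts varied more between arrays than most transcripts did. The median range over the 6 arrays was 1.11 for the 23 HOX probe sets and 0.42 over all tested probe sets, and 16 of 23 HOX probe sets spanned 1 or more on the log2 scale, against 12.6% of all. Anterior, middle and posterior members differed in which arrays were high, which becomes visible when each probe set is expressed as its deviation from its own mean over the 6 arrays and averaged. Divided by paralog range, the median difference was -0.66 for the 3 probe sets of numbers 1 to 3, -0.24 for the 14 of numbers 4 to 8 and -0.04 for the 6 of numbers 9 to 11. The finer division at 6 and 9, used above in part and below, was chosen after the values had been seen. The array orders counted below were chosen in the same way, so the shares beside them describe these orders and do not test them.

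For paralog numbers 1 to 6, v-Myb arrays 2 and 3 stood apart from the other arrays. Both lay below every N118D array in 10 of 11 probe sets, the exception being HOXD4 (b), and 13.3% of all tested probe sets showed this order. In 7 of 11 both lay below the N118D range and v-Myb array 1 lay within or above it (10.3% of all). Among probe sets with v-Myb arrays 2 and 3 below, this position of array 1 was common. It was found in 1701 of 2205 over all tested probe sets and in 7 of 10 here, so it does not set these HOX probe sets apart. By deviation, HOXB1 stood at 0.90, -0.70 and -1.35 on v-Myb arrays 1 to 3 and at 0.74, -0.13 and 0.52 on N118D arrays 1 to 3. The 4 probe sets of paralog number 4 together stood at 0.08, -0.37 and -0.31 on the v-Myb arrays and at 0.29, 0.01 and 0.30 on the N118D arrays.

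For numbers 7 to 9 the extremes were both v-Myb arrays. v-Myb array 1 was the highest of the 6 in 7 of 8 probe sets (19.6% of all), and v-Myb array 2 was the lowest in 7 of 8 (18.6% of all). The exceptions were HOXD8, with v-Myb array 3 highest, and HOXA7 (a), with N118D array 1 lowest. Paralog number 9 stood at 0.94 on v-Myb array 1 and at -0.53 on v-Myb array 2, and the other arrays lay between -0.36 and 0.19.

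For numbers 10 and 11 the extremes were both N118D arrays. In all 4 probe sets N118D array 1 was the highest and N118D array 3 the lowest, an order shown by 5.26% of all tested probe sets. HOXA11 and HOXD11 together stood at 1.01 on N118D array 1 and at -1.12 on N118D array 3. N118D array 3 was thus high for paralog numbers 1 to 5, between 0.30 and 0.52, and low for 9 to 11, between -0.36 and -1.12. N118D array 1 was above the mean at every paralog number except 7, and v-Myb array 2 was below it at every number. Probe sets of one gene and neighbouring genes of a cluster are not independent observations.

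**Figure D4:**
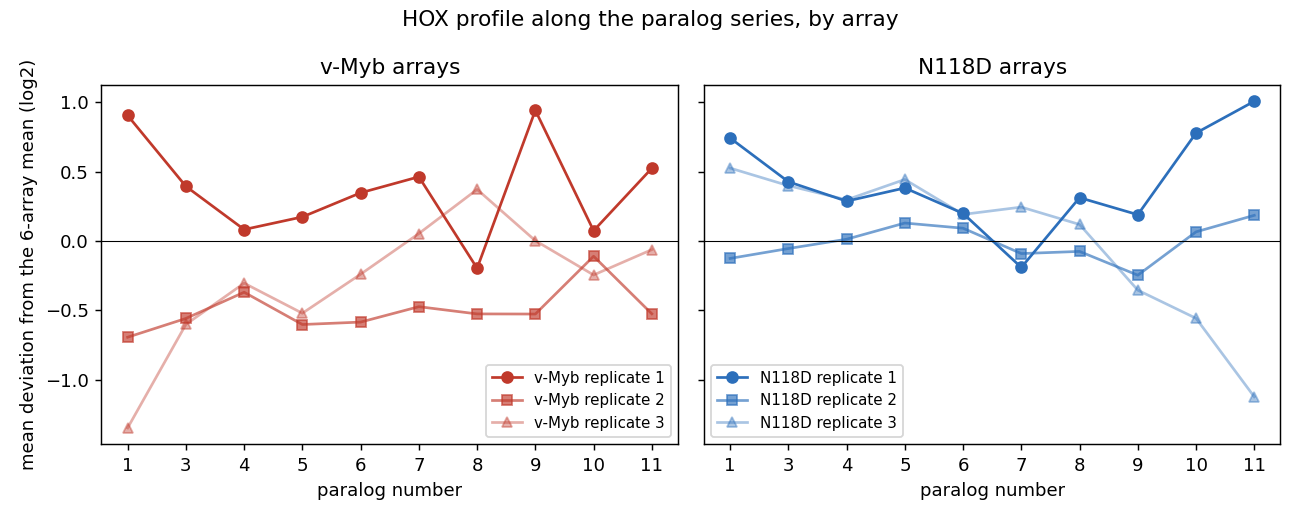
Mean deviation of the tested HOX probe sets from their own 6-array mean (log2, vertical axis) at each paralog number (horizontal axis; number 2 has no tested probe set), with 1 line per array, v-Myb arrays at left and N118D arrays at right. v-Myb array 1 lies above 0 at all numbers but 8 and v-Myb array 2 below 0 at all. N118D array 3 runs from 0.52 at number 1 to -1.12 at number 11.

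By cluster, the 5 HOXB probe sets were all lower on the v-Myb arrays, with a median difference of -0.64, and HOXD probe sets were lower in 5 of 6 with a median of -0.16. HOXA probe sets were lower in 6 of 11 with a median of -0.11. The cluster and the paralog number go together here, since no HOXB gene above number 7 and only HOXD4 among HOXD genes below 8 was tested. In the RefSeq annotation HOXA3 overlaps HOXA4, HOXA5 and HOXA6, and HOXB3 overlaps HOXB4, HOXB5 and HOXB6, so signals of these neighbours may share transcripts. The long noncoding RNA HOXA10-AS, not a member, had 2 probe sets between 2.25 and 3.34. A probe set shared by HOXD10 and HOXD8, also not a member, was between 3.73 and 4.50.

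No measured gene for a HOX cofactor or regulator passed the adjusted threshold. Of 6 measured genes for TALE-class homeobox cofactors, which bind DNA together with HOX proteins, 5 were lower and 1 higher on the v-Myb arrays, with a median of -0.03, and none had an unadjusted p under 0.05. MEIS1 differed by -0.23, MEIS2 by -0.39 (standard error 0.68), PKNOX2 by -0.04 and PBX4 by -0.02. MEIS2 was at 7.11 on v-Myb array 1 and at 4.88 and 4.51 on v-Myb arrays 2 and 3, with the N118D arrays between 5.82 and 6.01, which is the array order of HOXB1 within the v-Myb group.

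Upstream regulators of HOX genes were measured for 6 of 16 genes, 3 lower and 3 higher, with a median of -0.01. The signal protein gene WNT3A differed by -0.62, the retinoid receptor genes RXRG and RARB by 0.24 and 0.30, and the retinoic acid synthesis gene ALDH1A2 by -0.28. None had an unadjusted p under 0.05, and the standard errors of these 4 were 0.14 to 0.32. RXRG alone of the 6 did not overlap between the groups (5.74% of all tested probe sets). The highest difference in the list was that of TBXT, a mesoderm and tail bud gene named after its values were seen, at 0.70 (standard error 0.72). TBXT was at 7.80, 5.40 and 6.09 on the v-Myb arrays and at 5.37, 5.13 and 6.70 on the N118D arrays, so the groups overlapped. CDX1, CDX2 and CDX4, homeobox activators of trunk HOX genes, stayed at or below 2.75 and were not tested. Chromatin regulators of the Polycomb and trithorax groups, 12 measured of 16, were lower in 5 cases and higher in 7 with a median of 0.02. BMI1, a Polycomb gene, differed by 0.28, JARID2 by -0.09, CBX8 by 0.09 and the trithorax complex gene ASH2L by 0.03.

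Regional genes known from the brain in front of the HOX domain, though not all confined to it, were measured for 5 of 10 genes. Of these, 3 were lower and 2 higher, with a median of -0.12. LMX1B, a homeobox gene of the midbrain-hindbrain boundary and the dorsal neural tube, had the only unadjusted p under 0.05 (1.91% of all). It differed by -0.44 (standard error 0.12), and it alone of the 5 did not overlap between the groups (5.74% of all). PAX2 differed by -0.63, OTX2, a forebrain and midbrain gene, by 0.18, and IRX2 by -0.12. OTX2 stayed between 7.38 and 8.47 on all arrays. Other homeobox genes, 5 measured of 11, were lower in 2 cases and higher in 3 with a median of 0.01, and MSX2 differed by -0.27, MSX1 by -0.15, DLX5 by 0.15 and DLX6 by 0.09. None of the genes in these 5 lists passed the adjusted threshold in limma, where 0% of all tested probe sets did.

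Marker lists of other cell types also varied between the arrays. The mean log2 level of 7 measured neural tube progenitor markers of 10 was 7.90 to 9.97 in the v-Myb group and 8.72 to 9.35 in the N118D group. By deviation they stood at 1.20, -0.88 and -0.87 on v-Myb arrays 1 to 3 and at 0.02, -0.05 and 0.58 on N118D arrays 1 to 3. The members differed widely in this. HES5 was at 9.69, 4.07 and 3.41 and NKX6-1 at 10.67, 7.01 and 7.15 on v-Myb arrays 1 to 3. NES and OLIG2 spanned only 0.50 and 0.29 over the 6 arrays, and SOX3 was highest on N118D array 1. SOX2, IRX5 and the probe set matched to DBX1, which is annotated LEUTX, were below the minimum. Of the neuronal markers 7 of 8 were measured, with means of 8.004 to 10.32 and 8.81 to 9.18, and they stood at 1.36, -0.59 and -0.96 on the v-Myb arrays and between -0.15 and 0.22 on the N118D arrays. LHX3 was below the minimum. In both lists v-Myb array 1 was the highest and v-Myb arrays 2 and 3 were the 2 lowest. In paralog numbers 1 to 6, 7 of 11 probe sets had v-Myb arrays 2 and 3 below the N118D range but not array 1 (10.3% of all tested probe sets). For HOXB4, HOXD4 (a) and HOXA5, v-Myb array 1 also lay below every N118D array.

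Epithelial markers, 8 measured of 11, were lower in all 8 cases with a median of -1.13, and their mean was 8.11 to 9.80 in the v-Myb group and 9.64 to 10.17 in the N118D group. They stood at -1.31 on v-Myb array 2 and -0.63 on v-Myb array 3, and between 0.22 and 0.75 on the other arrays. Their differences ran from -1.49 to -0.38. Of the 8, 2 had an unadjusted p under 0.05 in limma (1.91% of all tested probe sets). The groups did not overlap for 3, all lower in v-Myb (5.74% of all in either direction and 3.05% lower). Of the 4 with the smallest p, the keratin genes KRT13 and KRT24 (listed as KRT19) differed by -0.68 and -1.16, the transcription factor gene TP63 by -0.38 and the desmosome gene DSP by -1.37. GRHL3, ESRP1 and CLDN4 were below the minimum. Mesoderm and mesenchymal markers, 8 measured of 12, were lower in 8 with a median of -0.15 and ranges of 9.03 to 9.29 and 9.20 to 9.55. They stood at -0.08, -0.23 and 0.04 on the v-Myb arrays and at 0.30, 0.03 and -0.06 on the N118D arrays. MEOX1, TCF15, TBX18 and MYF5, genes of somites and their derivatives, were below the minimum. Measured members of the same list included MYOD1, between 4.87 and 5.53 over the 6 arrays, and FOXC2 and TWIST2. TWIST2 differed by -0.50 (standard error 0.28), and it alone of the 8 did not overlap between the groups (5.74% of all in either direction and 3.05% lower). MEOX2, counted with the other homeobox genes, was between 6.62 and 7.98. The low values of MEOX1, TCF15, TBX18 and MYF5 do not show that somite derivatives were absent. The part of each of these cell types in the HOX differences was not tested.

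Markers of the labelled cell type were measured on all arrays. Neural crest markers, 9 measured of 11, had means of 9.15 to 9.70 on the v-Myb arrays and 9.12 to 9.29 on the N118D arrays, and 8 of the 9 were higher on the v-Myb arrays, with a median of 0.19. SOX10, a transcription factor of migrating crest, stayed between 11.03 and 11.92. SOX9 and NGFR were below the minimum, and TFAP2B alone of the 9 did not overlap between the groups (5.74% of all tested probe sets). Melanoblast markers, 9 measured of 10 with SLC45A2 below the minimum, had means of 10.85 to 11.71 and 10.61 to 11.003 and were higher on the v-Myb arrays in all 9 cases, with a median of 0.45. PMEL alone had an unadjusted p under 0.05 in limma (1.91% of all) and groups without overlap (5.74% of all). The 9 crest markers stood at 0.43 and the 9 melanoblast markers at 0.66 on v-Myb array 2, their highest array, while the HOX probe sets stood at -0.47 there, their lowest. On the other arrays the crest markers lay between -0.15 and 0.02 and the melanoblast markers between -0.44 and 0.14. The HOX probe sets lay between -0.23 and 0.36 on those arrays. Any relation between these lists and the HOX probe sets was not tested.

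**Figure D5:**
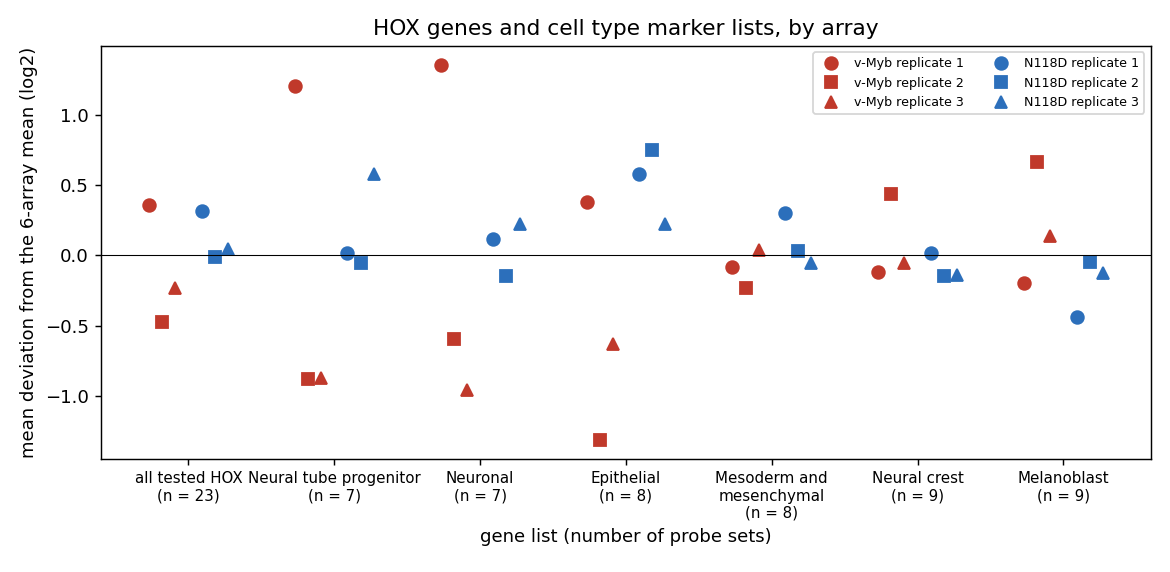
Mean deviation from the 6-array mean (log2, vertical axis) of all tested HOX probe sets and of the measured genes in 6 cell type marker lists (horizontal axis, with the number of probe sets in each), 1 mark per array. v-Myb array 1 is highest for HOX, neural tube and neuronal lists. v-Myb array 2 is lowest for HOX, epithelial, mesoderm and mesenchymal, and neural tube lists, in the last nearly level with v-Myb array 3. It is highest for crest and melanoblast lists.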

How the data were processed

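RNA from 6 neural crest cultures was labelled by in vitro transcription from 100 ng of total RNA and hybridised to an Affymetrix chicken array. The authors deposited 1 log2 value per probe set and array, made with GCRMA and Partek 6.4 per the submitters' processing notes. The scale was read from the values, and array medians were 3.08 to 3.12. GCRMA pulls dim probe sets to a floor, which shrinks low differences. The level of this floor differed between probe sets. For example, 1 HOXC13 probe set stayed between 1.67 and 1.71 and 1 HOXB1 probe set between 3.39 and 3.47. The role of Partek is not given in the sources used here, and scanner files were not used here, so background correction was not varied.

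The 96 control probe sets were left out, and 16526 probe sets at 4 or more on at least 3 arrays were fitted with limma 3.58.1 in R 4.3.3 (lmFit, eBayes, group only, two-sided, Benjamini-Hochberg over all tested probe sets). The fit was run on simulated data with 200 changed probe sets. Simulated errors were drawn independently for each probe set and array, so deviations shared by many probe sets were not simulated. Symbols are those of the platform annotation, parts of which may be out of date, and gene IDs were matched to RefSeq (assembly GRCg7b, names and overlaps only). Members, 11 gene lists and tests were chosen with earlier results of these data known. Where a listed gene had several probe sets, the one with the highest mean was used. The listed KRT19 was matched through a RefSeq synonym to a probe set annotated KRT24. By RefSeq gene ID the listed DBX1 and WDR5 were matched to probe sets annotated LEUTX and WDR5B.

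HOX probe sets were given on every array if the groups did not overlap, the unadjusted p was under 0.05 or the difference was at least 0.5. HOXC9, HOXA11, HOXD11 and TBXT were added after their values were seen, as were the measured neural tube progenitor markers named above. Up to 4 genes of smallest p were named per pathway list, and fewer for cell type markers. As alternatives the filter was removed or set at 6, values were quantile-normalized or centred on array medians, the variance was fitted with trend and robust eBayes or not moderated, the replicate number was used as a block, probe sets were averaged per gene, and each array was left out in turn. Leaving out both arrays numbered 1 was added after seeing the data.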

Additional observations from a re-analysis of the deposited data

How the results depend on the processing

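No HOX probe set passed the adjusted threshold in limma under any alternative run, and each of the 7 HOX probe sets given on every array for its size, p or lack of overlap that an alternative tested stayed lower on the v-Myb arrays. The count of HOX probe sets lower in v-Myb, 16 of 23, was 41 of 59, or 69.5%, with no filter, where 62.9% of all probe sets were lower. The median HOX difference with no filter was -0.02. The count was 17 of 23 with median centring (51.5% of all) and 13 to 21 when 1 array was left out (47.4% to 53.2% of all). The count without overlap, 3, was 6 of 59 with no filter (7.75% of all) and 4 to 11 without 1 array (9.86% to 25.1% of all), and the count at an unadjusted p under 0.05, also 3, was 3 to 11 without 1 array (1.06% to 7.30% of all). Leaving out an array makes an absence of overlap more frequent by construction. Without both arrays numbered 1, chosen after seeing the data, these counts were 14 (36.6% of all probe sets) and 10 (6.68% of all). The median HOX difference ranged from -0.38 to -0.01 over fits without 1 array. Over the same fits HOXB1 ranged from -1.40 to -0.28, HOXB3 from -1.02 to -0.45, HOXA4 from -0.90 to -0.27 and HOXB5 from -1.04 to -0.44, while HOXA5 kept to -0.72 to -0.54 and HOXB4 to -0.73 to -0.54. HOXD4 averaged over its 2 probe sets differed by -0.19. With the replicate number as a block, 5 HOX probe sets had an unadjusted p under 0.05 and 0 passed the adjusted threshold, while the share of all tested probe sets with such a p went from 1.91% to 4.03%. Deviations of same-numbered arrays correlated at 0.40, 0.45 and -0.05 over all tested probe sets, and those of differently numbered arrays at -0.57 to 0.42. The labels name no pairing, so the main fit did not treat the numbers as pairs. With 3 arrays a group these correlations cannot settle whether they are. Of the N118D arrays, array 2 correlated best with v-Myb array 3. Values near the floor of each probe set limit what can be said of the 36 untested HOX probe sets.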
